A study of Arabidopsis thaliana with 9 samples.

Results

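Auxin moves between plant cells through carriers and changes transcription by removing a family of repressors, and the genes described here belong to those steps. They are the Aux/IAA repressors, 4 GH3 enzymes that conjugate auxin, the PIN efflux carriers other than PIN2, and the AUX1/LAX influx carriers. They were listed by family as 44 Arabidopsis loci; the rule uses no measured value, but the list was drawn up with earlier results of these data known. Of these, 43 were among the 20777 loci of the deposited table: 28 of 29 Aux/IAA genes, 4 of 4 listed GH3 genes, 7 of 7 listed PIN genes and 4 of 4 AUX1/LAX genes. PIN2 was counted with the other auxin genes below and lay between 5.94 and 6.26 on all arrays. IAA15 (AT1G80390) was not analysed here.

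RNA came from the vegetative part of seedlings at growth stage 1.03, raised on MS medium at 22 °C in days of 16 h light and nights of 8 h, and was hybridised to 9 Affymetrix ATH1 arrays, with 3 biological repeats of each of 3 genotypes. All plants carried the Col-0 ecotype label. The groups were wild type, a line labelled 35S::AVP1 (the vacuolar proton pyrophosphatase gene AVP1 behind a viral promoter that is active in most tissues), and a line with extra BRI1, the brassinosteroid receptor gene. The labels of the latter give both pBRI1::BRI1 and 35S::BRI1, so its promoter is uncertain, and the sources used here do not say how many independent transformants stand behind each line. The series is about ways to obtain larger leaves.

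Aux/IAA proteins bind ARF transcription factors at auxin-responsive promoters and hold them inactive. Auxin joins the F-box receptors TIR1 and AFB to a short degron in the Aux/IAA protein, which is then destroyed, and the ARF is released. Many Aux/IAA and GH3 genes are themselves switched on by auxin, so that the pathway limits itself: new repressor is made, and GH3 enzymes link free auxin to amino acids. PIN carriers set the direction of auxin flow out of cells, and AUX1/LAX carriers take it up. In leaves this flow places primordia and veins, and auxin and brassinosteroid act on many of the same growth genes.

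Levels are given as deposited, on the log2 scale, where a difference of 1 is a doubling. They are signals of a locus' probes, so they were compared between arrays for the same gene and not between genes. BRI1 (AT4G39400) read 9.55, 9.58 and 9.51 in wild type, 9.73, 9.86 and 9.66 in the arrays labelled 35S::AVP1 and 12.18, 12.34 and 12.33 in the BRI1 line, and the BRI1 line did not overlap the others. AVP1 (AT1G15690) read 12.58, 12.59 and 12.71 in wild type and 12.49, 12.55 and 12.57 in the arrays labelled 35S::AVP1, so the gene named in that label was not higher there. Whether its probes cover the construct is unknown, and changes below are therefore given for the arrays by their label. Array medians lay between 6.34 and 6.42, and the 10th percentile of an array, used here as a mark of the dim end, between 3.71 and 3.79. RCA, the activase of the carbon-fixing enzyme and the 1 of 4 listed green-tissue markers that was measured, stood at 14.1 to 14.3 on all 9 arrays.

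In the arrays labelled 35S::AVP1, 6 of the 43 auxin genes differed from wild type: IAA9, IAA17, IAA27 and the influx carrier gene LAX3 rose, and IAA4 and IAA13 fell. All 6 changes were under 2-fold. The test was limma's moderated fit over all loci and arrays with Benjamini-Hochberg adjustment, and a gene was called at an adjusted p under 0.05. The share called, 14.0%, was close to the 11.1% of all loci called in this comparison, with 6.31% of all loci called higher and 4.76% lower. Of the called loci 57% were thus higher, but 49.1% after quantile normalization and 47.3% after median centring, under which the 6 genes kept their direction and call. At an unadjusted p under 0.05 there were 10 of 43, or 23.3%, against 24.2% of all loci. Groups did not overlap at 13 of 43 genes, 11 higher and 2 lower, where the figures over all loci were 28.4%, 18.8% and 9.63%. The median log2 change was 0.06 over the 43 genes and 0.05 over all loci, and 0.02 and 0.01 after quantile normalization. In whole tissue, fewer cells that express a gene and less RNA per cell cannot be told apart.

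IAA17 (AT1G04250, also AXR3), a repressor whose stabilised form disturbs shoot and root growth, read 8.64, 8.56 and 8.10 in wild type and 9.34, 9.37 and 9.09 in the arrays labelled 35S::AVP1. The groups did not overlap, and the lowest value was that of wild type replicate 3. The rise was 0.83 (1.78-fold, SE 0.16, 95% interval 0.48 to 1.19; limma adjusted p = 0.00775), and it stayed called in all 9 fits that left out 1 array. IAA17 belongs to a group of close relatives with IAA7 (AXR2), IAA14 (SLR) and IAA16. IAA7 read 10.46, 10.47 and 10.61 in wild type and 10.65, 10.74 and 10.74 in the arrays labelled 35S::AVP1, a difference of 0.20 that was not called (95% interval 0.05 to 0.34; limma adjusted p = 0.0930). IAA14 and IAA16 overlapped between the groups and were not called. Their differences were 0.35 (95% interval -0.13 to 0.83) and -0.14 (95% interval -0.38 to 0.10). Whether IAA17 moved more than its relatives was not tested.

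IAA9 (AT5G65670) had the smallest spread of the called genes. It read 9.96, 10.11 and 10.10 in wild type and 10.61, 10.60 and 10.60 in the arrays labelled 35S::AVP1, with no overlap. Its rise was 0.55 (SE 0.07, 95% interval 0.40 to 0.70, 1.46-fold; limma adjusted p = 0.000470). Its relative IAA27 (AT4G29080) read 6.77, 6.85 and 6.70 in wild type and 7.05, 7.24 and 7.60 in the arrays labelled 35S::AVP1, again without overlap but with 1 high array. The rise of IAA27 was 0.52 (95% interval 0.22 to 0.83; limma adjusted p = 0.0336). That call was lost without any 1 of the 3 wild type arrays, without replicate 2 or 3 labelled 35S::AVP1, without BRI1 line replicate 3 and with only the 6 arrays compared. Over all alternatives the adjusted p of IAA27 ran from 0.0182 to 0.0855, and without replicate 3 labelled 35S::AVP1 its change was 0.37. IAA8, the third of these relatives, read 11.18, 11.16 and 11.01 in wild type and 11.14, 11.16 and 11.09 in the arrays labelled 35S::AVP1, and the groups overlapped.

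IAA4 (AT5G43700), an early auxin-induced repressor gene, read 9.22, 8.94 and 9.03 in wild type and 8.19, 8.20 and 8.44 in the arrays labelled 35S::AVP1. Every array with that label was below every wild type array. IAA4 fell by 0.78, or 1.72-fold (95% interval -0.997 to -0.569, SE 0.10; limma adjusted p = 0.000500). Its close relative IAA3 (SHY2), which limits root meristem size, read 7.98, 8.21 and 7.98 in wild type and 7.85, 8.01 and 7.94 in the arrays labelled 35S::AVP1. These values overlapped, and the difference of -0.12 was not called (95% interval -0.31 to 0.06; limma adjusted p = 0.422).

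IAA13 (AT2G33310), a repressor that acts with the ARF protein MP in embryo patterning, read 8.40, 8.18 and 8.19 in wild type and 7.72, 7.73 and 7.98 in the arrays labelled 35S::AVP1, without overlap. IAA13 fell by 0.45 (SE 0.10, 95% interval -0.66 to -0.23; limma adjusted p = 0.0139). The call was lost without replicate 1 labelled 35S::AVP1 (-0.40, adjusted p = 0.0560) or replicate 2 (-0.41, adjusted p = 0.0572), and over all alternatives the adjusted p ran from 0.00704 to 0.0572. IAA12 (BDL), its nearest relative and partner in the same process, read 6.70, 6.47 and 6.45 in wild type and 7.01, 6.62 and 6.66 in the arrays labelled 35S::AVP1. Its difference of 0.23 was not called (95% interval -0.21 to 0.67; limma adjusted p = 0.532).

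The other 23 Aux/IAA genes were not called in this comparison. IAA20 and IAA30 to IAA34 lack the canonical degron in whole or in part and are known to last longer than the rest. Their levels ran from 3.36 to 5.15 over all 9 arrays, near the dim end of the scale. IAA31 was below the 10th percentile of the array on 9 of 9 arrays, so little can be said of it. IAA19 (MSG2), a repressor of the hypocotyl's bending response that both auxin and brassinosteroid induce, read 7.42, 7.63 and 7.32 in wild type, 7.38, 7.49 and 7.25 in the arrays labelled 35S::AVP1 and 7.63, 7.50 and 7.42 in the BRI1 line, and all 3 groups overlapped.

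**Figure D1:**
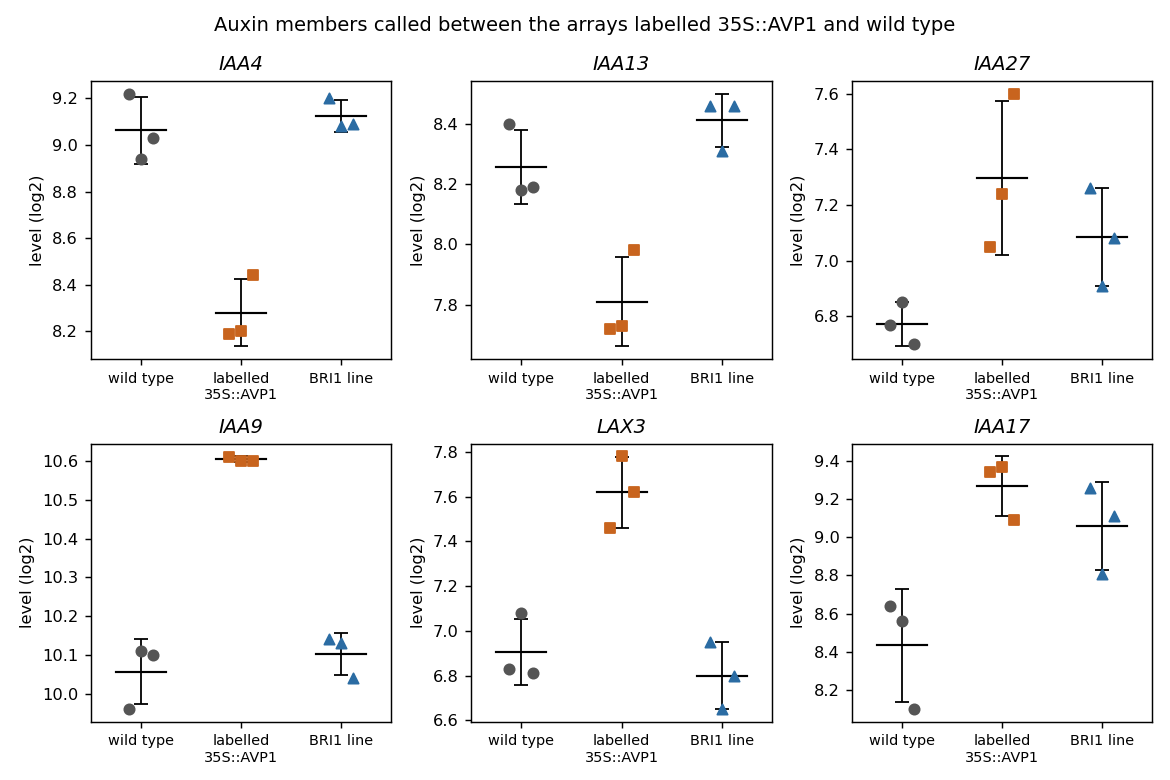
Log2 level (vertical axis, 1 panel per gene, each with its own range) of the 6 auxin genes called between the arrays labelled 35S::AVP1 and wild type, by genotype on the horizontal axis. Points are single arrays in replicate order, lines are means and error bars SD (n = 3). The BRI1 line lies with wild type for IAA4, IAA9 and LAX3, while for IAA17 and IAA27 its 3 arrays lie above all wild type arrays.

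Among the carriers, LAX3 (AT1G77690) rose in the arrays labelled 35S::AVP1. LAX3 takes up auxin and is known for its role in the emergence of lateral roots and for its induction by auxin. It read 6.83, 7.08 and 6.81 in wild type and 7.46, 7.78 and 7.62 in the arrays labelled 35S::AVP1, and the groups did not overlap. The rise was 0.71 (SE 0.11, 95% interval 0.47 to 0.96, 1.64-fold; limma adjusted p = 0.00238), and it stayed called in all 9 fits that left out 1 array.

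The other influx carriers were not called against wild type. LAX1 read 8.85, 8.96 and 9.15 in wild type and 9.18, 9.17 and 9.19 in the arrays labelled 35S::AVP1, a difference of 0.19 (95% interval 0.01 to 0.37; limma adjusted p = 0.171). LAX2, which helps to pattern veins, read 7.70, 7.49 and 7.31 in wild type and 7.08, 7.19 and 7.43 in the arrays labelled 35S::AVP1, with an interval of -0.54 to 0.01 for the difference. AUX1, the founding member, was almost level over the whole series: its 9 values lay between 9.89 and 10.03, and the interval of its difference was -0.17 to 0.12.

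None of the 7 PIN genes was called by limma in the arrays labelled 35S::AVP1, and 2 had an unadjusted p under 0.05, PIN3 and PIN5. Over all loci the shares were 11.1% called and 24.2% at that unadjusted p. PIN3, which redirects auxin in bending organs, read 9.44, 9.18 and 8.91 in wild type and 9.60, 9.72 and 9.56 in the arrays labelled 35S::AVP1. The groups did not overlap, and the difference was 0.45 (95% interval 0.10 to 0.79; limma adjusted p = 0.104), against a wild type spread of 0.26 (SD, n = 3). PIN5, which sits in the endoplasmic reticulum and moves auxin within the cell, differed by 0.20 (95% interval 0.04 to 0.35; limma adjusted p = 0.114).

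PIN4 stayed between 9.85 and 10.08 and PIN7 between 9.63 and 9.86 over all 9 arrays. PIN8, a pollen carrier in the endoplasmic reticulum, lay between 3.62 and 3.92 and below the 10th percentile on 3 of 9 arrays. PIN6 read 6.20 to 6.55.

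None of the 4 GH3 genes was called in any of the 3 comparisons, and by limma 0 of 4 had an unadjusted p under 0.05 in each. Over all loci 11.1% were called with the 35S::AVP1 label, 0.1% in the BRI1 line and 10.3% between the lines. The unadjusted shares over all loci were 24.2%, 5.3% and 23.9% in that order, so counts of 0 among 4 genes say little about GH3. GH3.6 (DFL1) read 10.03, 9.61 and 9.07 in wild type, 9.66, 9.88 and 9.81 in the arrays labelled 35S::AVP1 and 9.89, 9.05 and 9.58 in the BRI1 line. The range of GH3.6 within wild type, 0.95, was wider than its differences between genotype means. Intervals of the GH3 differences from wild type reached from -0.59 to 0.76 in the arrays labelled 35S::AVP1 and from -0.67 to 0.52 in the BRI1 line, and the widest were those of GH3.5 and GH3.6. GH3.1 was dim, between 3.91 and 4.24, and its interval was narrower, -0.13 to 0.26 in the arrays labelled 35S::AVP1.

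**Figure D2:**
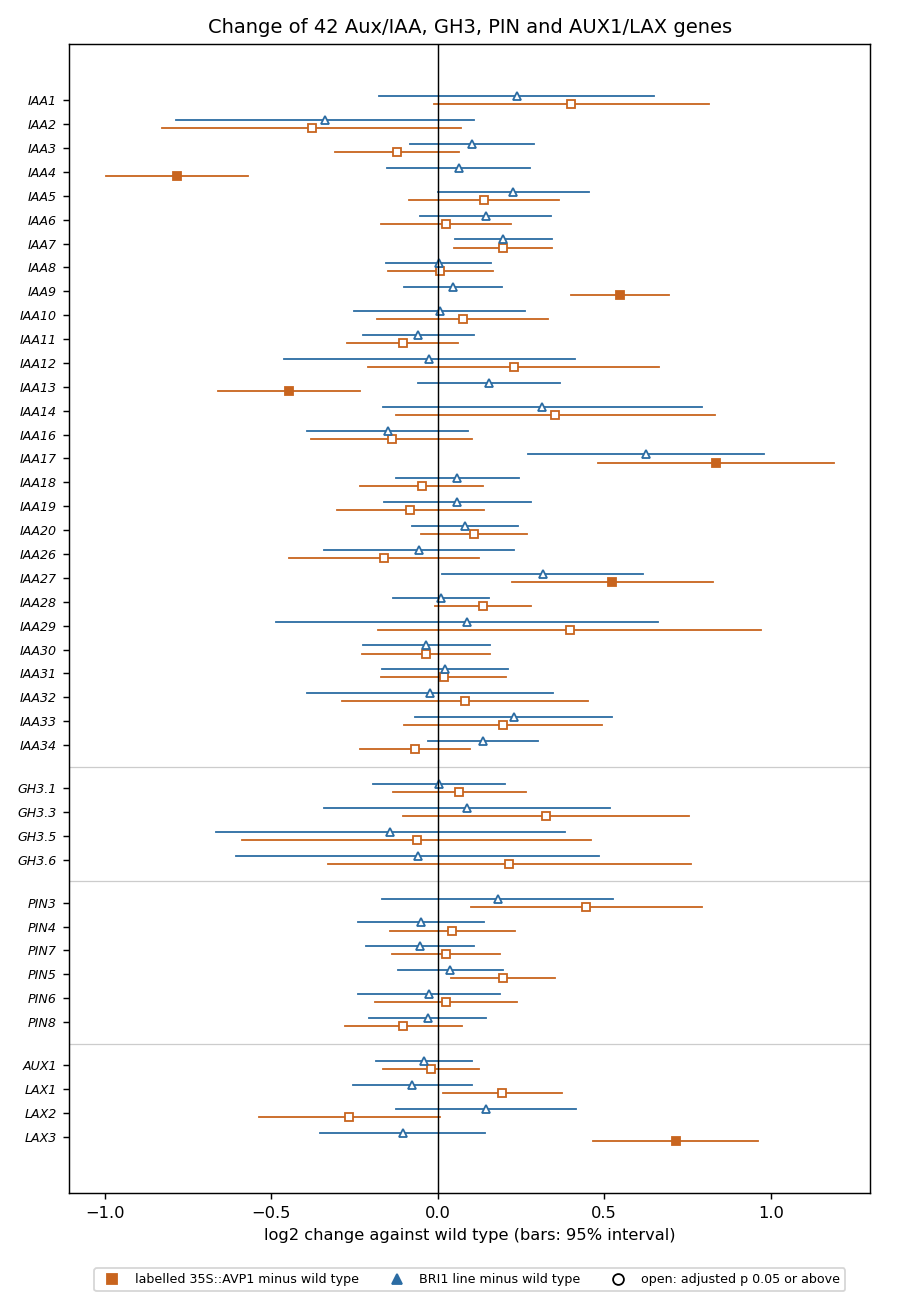
Log2 change against wild type (horizontal axis) of 42 of the 43 genes, ordered by family, with 95% intervals from limma. Squares are the arrays labelled 35S::AVP1 and triangles the BRI1 line, and filled symbols are the called genes, which are 6 for the squares and 0 for the triangles. Intervals are wide for IAA29, IAA14, GH3.5 and GH3.6 and narrow for AUX1 and IAA28.

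In the BRI1 line, limma called 0 of the 43 auxin genes against wild type, where 0.0818% of all loci were called. At an unadjusted p under 0.05 there were 4 genes, all higher (IAA5, IAA7, IAA17 and IAA27), or 9.3%, against 5.3% of all loci in either direction, 2.32% higher and 2.98% lower. Groups did not overlap at 8 of 43, 8 higher and 0 lower, where 4.38% of all loci lay wholly higher and 5.75% wholly lower. The median log2 change was 0.04 over the 43 genes and -0.01 over all loci.

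IAA17 differed most in the BRI1 line. It read 9.26, 8.81 and 9.11 there against 8.64, 8.56 and 8.10 in wild type, a difference of 0.62 (95% interval 0.27 to 0.98; limma adjusted p = 0.484). All 3 arrays of the BRI1 line were above all 3 of wild type. IAA7 read 10.70, 10.72 and 10.72 in the BRI1 line, above its wild type values of 10.46 to 10.61, with a difference of 0.20 (95% interval 0.05 to 0.34; limma adjusted p = 0.744).

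IAA27 read 7.26, 6.91 and 7.08 in the BRI1 line and differed from wild type by 0.31 (95% interval 0.01 to 0.62; limma adjusted p = 0.926). IAA5, an auxin-induced repressor gene that brassinosteroid also induces, read 5.82, 5.55 and 5.49 against 5.39, 5.35 and 5.45, a difference of 0.23 (limma adjusted p = 0.936). IAA34 read 4.61, 4.49 and 4.54 against 4.37, 4.39 and 4.48. All 5 of these genes lay wholly above wild type, as did IAA20 and IAA33, and none passed the adjusted test. The comparisons of both lines use the same wild type arrays, so a wild type array that is low for a gene, such as replicate 3 for IAA17, enters both.

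The lines were also compared directly, which is the test of whether their auxin genes differed from each other. Here 4 of 43 genes were called (9.3%, against 10.3% of all loci): IAA4 and IAA13 were higher in the BRI1 line than in the arrays labelled 35S::AVP1, and IAA9 and LAX3 were lower. Over all loci 4.05% were higher and 6.27% lower. Of the called loci 39.2% were thus higher in the BRI1 line, and 52.4% after quantile normalization and 56.4% after median centring, under which these 4 genes kept their direction and call. Groups did not overlap at 10 of 43 genes, 5 higher and 5 lower, against 30.3% of all loci, 9.36% higher and 21% lower. IAA4 read 9.20, 9.08 and 9.09 in the BRI1 line, 0.85 above the arrays labelled 35S::AVP1 (95% interval 0.63 to 1.06; limma adjusted p = 0.000315). IAA13 read 8.46, 8.31 and 8.46, a difference of 0.60 (limma adjusted p = 0.00283). IAA9 read 10.14, 10.13 and 10.04, a difference of -0.50 (limma adjusted p = 0.000882). LAX3 read 6.95, 6.65 and 6.80, a difference of -0.82 (95% interval -1.07 to -0.57; limma adjusted p = 0.00102). All 4 stayed called in each of the 9 fits that left out 1 array.

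IAA17 and IAA27 were not shown to differ between the lines: the interval was -0.56 to 0.14 for IAA17 and -0.51 to 0.09 for IAA27. LAX2 read 7.74, 7.50 and 7.70 in the BRI1 line against 7.08, 7.19 and 7.43 in the arrays labelled 35S::AVP1, with no overlap. Its difference of 0.41 missed the threshold (95% interval 0.14 to 0.68; limma adjusted p = 0.0620) and passed it after quantile normalization or median centring, with only the 6 arrays compared, and without wild type replicate 1, wild type replicate 3 or replicate 3 labelled 35S::AVP1 (adjusted p from 0.0270 to 0.189 over all alternatives). LAX1 differed the other way, by -0.27 (95% interval -0.45 to -0.09; limma adjusted p = 0.0625). It passed with only the 6 arrays compared and without wild type replicate 1 or 3 (lowest adjusted p 0.0304).

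Several auxin genes had a wide spread between arrays of the same genotype. The pooled SD within genotypes was above the 90th percentile of all loci for 11 of the 43 genes: IAA1, IAA2, IAA12, IAA14, IAA17, IAA29, IAA32, GH3.3, GH3.5, GH3.6 and PIN3. These were picked out after their values were seen. The median SD was 0.12 over the 43 genes and 0.11 over all loci. IAA1 read 7.90, 7.33 and 7.04 in wild type, IAA2 9.47, 8.79 and 8.56, and IAA14 7.61, 7.21 and 6.75, each with replicate 1 highest and replicate 3 lowest. Without wild type replicate 1, IAA1 was called in the arrays labelled 35S::AVP1 (0.64, limma adjusted p = 0.0113), where with all arrays it was not (0.40, adjusted p = 0.220). GH3.5 read 7.41, 6.96 and 6.61 in wild type and 7.23, 6.41 and 6.92 in the BRI1 line.

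In the BRI1 line replicate 1 was the highest array for all 11 of these genes, and replicate 2 the lowest for all but IAA29. Over all loci the shares were 34.7% and 32.7%. The 11 genes were chosen for their spread on these same arrays, and other loci of equal spread were not counted, so the order is not shown to be particular to auxin genes. Over the 43 genes, wild type replicate 3 was the lowest of its group for 24 (55.8%, against 33.9% of all loci), and BRI1 line replicate 2 for 25 (58.1%, against 32.7%). Replicate 1 was highest for 21 of 43 in wild type and 24 of 43 in the BRI1 line (48.8% and 55.8%, against 38.5% and 34.7% of all loci). The genes share their arrays, so these counts describe the arrays and carry no test. IAA29, a target of phytochrome-interacting factors, read 7.72, 7.51 and 6.79 in the arrays labelled 35S::AVP1 and 7.57, 6.83 and 6.70 in the BRI1 line.

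**Figure D3:**
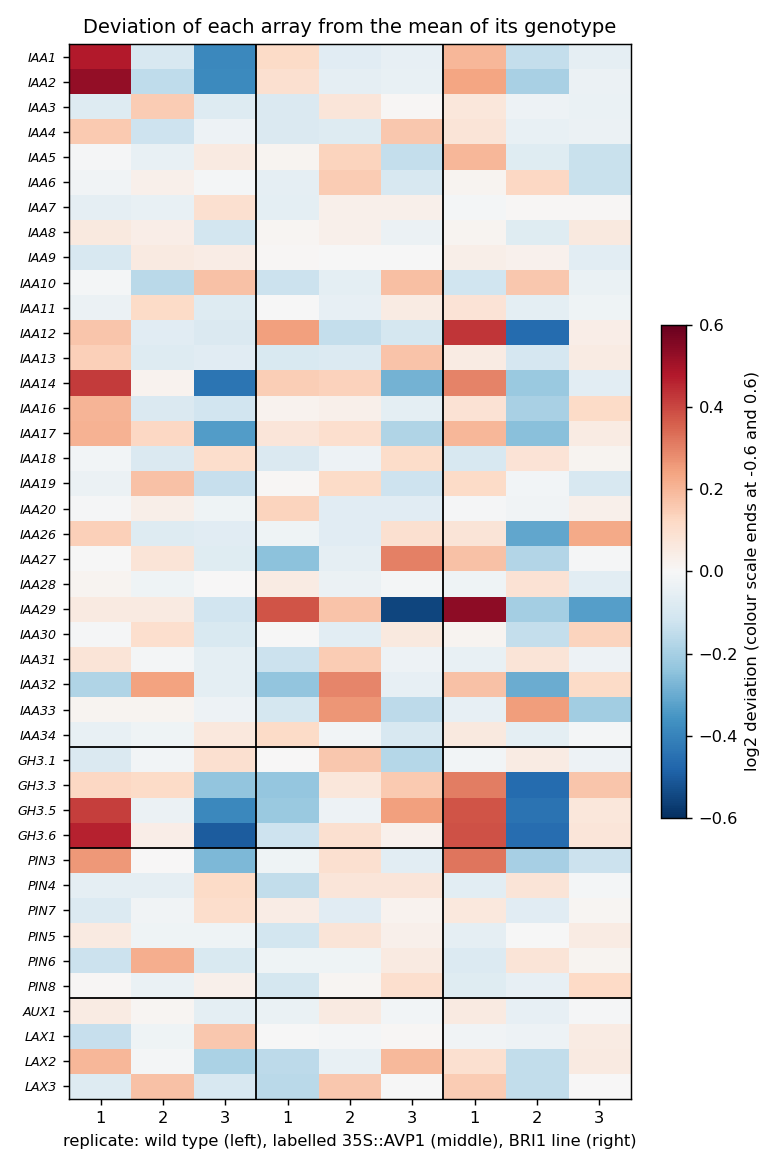
Log2 deviation of each array from the mean of its own genotype for 42 of the 43 genes (rows) on the 9 arrays (columns), red above and blue below the mean. Wild type replicate 1 is red and replicate 3 blue for IAA1, IAA2, IAA14, GH3.5 and GH3.6, and BRI1 line replicates 1 and 2 differ in the same way, whereas AUX1, IAA7 and IAA9 are pale throughout.

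A few of these genes lie side by side on the chromosome. In the TAIR10.1 gene table no protein-coding gene lies between IAA3 and IAA17 on chromosome 1, between IAA2 and IAA7 on chromosome 3, or between IAA14 and IAA1 on chromosome 4. The neighbours did not share a call in any comparison. IAA17 was called in the arrays labelled 35S::AVP1 and IAA3 was not, while neither gene of the other 2 pairs was called.

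The rest of the pathway was read from a list of 93 further auxin genes, of which 78 were measured. In the arrays labelled 35S::AVP1, 9 of 78 were called, 6 higher and 3 lower (11.5%, against 11.1% of all loci), and both directions occurred among the early response genes. By role, the called genes were 0 of 7 receptor genes, 1 of 16 ARF genes, 1 of 16 synthesis genes, 1 of 11 genes listed under conjugation and hydrolysis (the unnamed locus AT1G14120), 4 of 18 genes of transport and its regulators and 2 of 10 early response genes. The median log2 change of the 78 genes was 0.07, close to the 0.05 over all loci.

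AT1G14120 was put in the list's group of conjugation and hydrolysis without support from the files used here, which give it no symbol or function, so its place among auxin genes is unverified. It rose most, by 2.21, from 5.13 ± 0.35 to 7.34 ± 0.25 (SD, n = 3), with a limma adjusted p of 0.000312. The growth gene SAUR23, of a family that activates plasma membrane proton pumps, rose from 7.38 ± 0.26 to 8.44 ± 0.19 (1.05, limma adjusted p = 0.00502). Of the near copies SAUR19 to SAUR24 it alone was measured, and whether its probes also match the others was not tested. SAUR27 went the other way and fell by 0.68 (limma adjusted p = 0.00957). AAO1, an aldehyde oxidase placed in auxin synthesis, fell from 6.08 ± 0.05 to 5.48 ± 0.02 (-0.60, limma adjusted p = 0.000269).

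The kinases WAG1 and WAG2 phosphorylate PIN carriers and so direct their placement in the cell. Both rose: WAG1 from 4.72 ± 0.06 to 5.12 ± 0.14 and WAG2 from 4.19 ± 0.14 to 4.82 ± 0.24 (SD, n = 3; limma adjusted p = 0.00927 and 0.00862). Both also lay wholly above the same wild type arrays in the BRI1 line, by 0.09 for WAG1 and 0.37 for WAG2, and were not called there (limma adjusted p = 0.981 and 0.726). The other 3 genes called with the 35S::AVP1 label were named after their values were seen. They were the auxin transporter gene ABCB4 (1.14, limma adjusted p = 0.0209), which read 5.34, 6.50 and 5.23 against 4.50 to 4.58 in wild type, ARF11 (0.37, adjusted p = 0.0196) and PILS3 (-0.28, adjusted p = 0.0479). ABCB4 was 0.74 without replicate 2 labelled 35S::AVP1 and was not called without wild type replicate 2 (1.15, adjusted p = 0.0665) or with only the 6 arrays compared (adjusted p = 0.0550). ARF11 was not called without wild type replicate 1 or 2 or without replicate 1 or 3 labelled 35S::AVP1 (adjusted p up to 0.0774), and PILS3 was called in 1 of the 9 fits that left out an array (adjusted p up to 0.146).

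In the BRI1 line, limma called 0 of the 78 genes against wild type, where 0.0818% of all loci were called. At an unadjusted p under 0.05 there were 12, 10 higher and 2 lower (15.4%, against 5.3% of all loci, 2.32% higher and 2.98% lower). Of these 12, 4 were among the 10 early response genes measured of 15 listed, whose median log2 change was 0.25, against -0.01 over all loci. The rest were 4 of 18 genes of transport and its regulators, 2 of 16 synthesis genes and 2 of 11 under conjugation and hydrolysis. Receptor genes gave 0 of 7 and ARF genes 0 of 16. None of the 12 passes the adjustment over all loci, so the following are values only. The lowest p belonged to ABCB21, an auxin transporter gene, which read 5.12, 4.92 and 4.96 against 5.40, 5.72 and 5.58 in wild type, a difference of -0.57 (limma adjusted p = 0.233). SAUR15 read 7.62, 7.28 and 7.63 against 6.94, 7.01 and 7.02, a difference of 0.52 (95% interval 0.25 to 0.78; limma adjusted p = 0.354). PILS5, a carrier of the endoplasmic reticulum, differed by 0.44, SAUR23 by 0.73 and IAMT1, which methylates auxin, by 0.48 (limma adjusted p = 0.356, 0.484 and 0.514).

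Between the lines 11 of 78 genes were called (14.1%, against 10.3% of all loci). ACS4, an auxin-induced gene of ethylene synthesis, was higher in the BRI1 line, at 7.05 ± 0.05 against 6.40 ± 0.12 in the arrays labelled 35S::AVP1 (SD, n = 3; 0.65, limma adjusted p = 0.00121). SAUR27 (0.98), AAO1 (0.56) and the GH3 relative DFL2 (0.73) were higher too, and AT1G14120 (-1.84) and NPY1 (-0.44), which acts with PIN-directing kinases, were lower. DFL2 was not called without replicate 2 labelled 35S::AVP1 or BRI1 line replicate 3 (adjusted p from 0.00542 to 0.0548 over all alternatives).

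**Figure D4:**
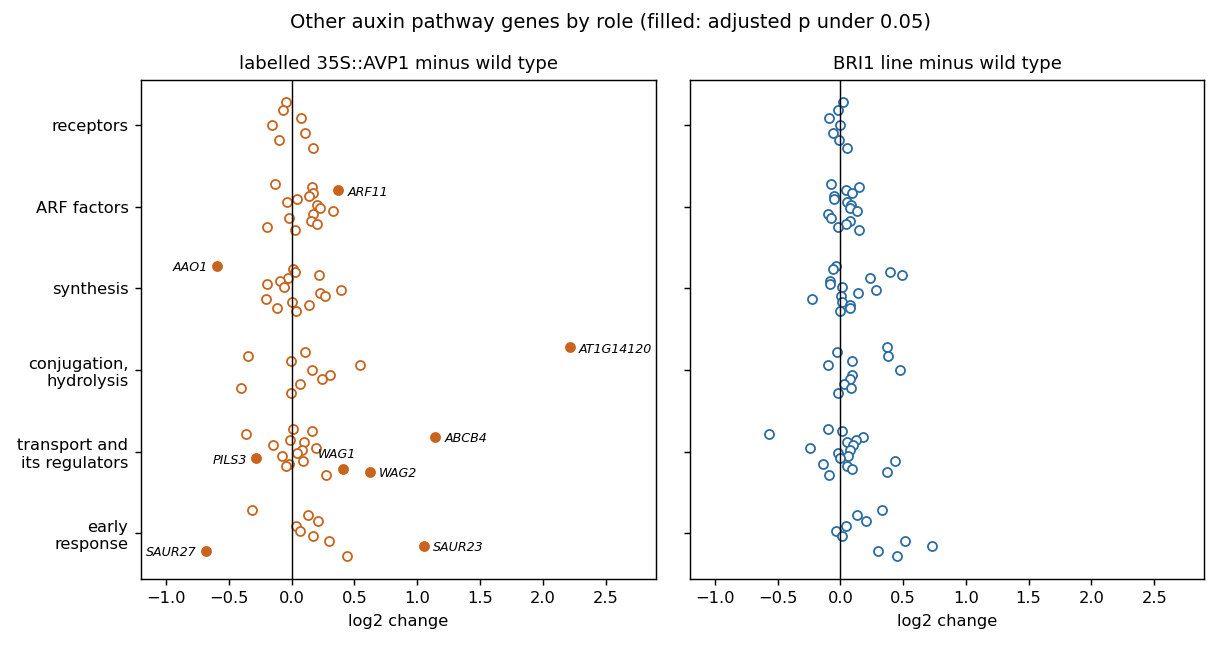
Log2 change (horizontal axis) of the 78 other auxin genes by role (vertical axis), in the arrays labelled 35S::AVP1 (left) and the BRI1 line (right) against wild type, with 1 point per gene. Filled and named points are called genes, 9 of 78 on the left and 0 of 78 on the right.

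Markers of other organs and tissues differed in the arrays labelled 35S::AVP1 as well, and their part in the auxin results was not tested. Of 6 flower markers SEP3 (1.80) and AG (0.57) were called higher. AG was dim, below the 10th percentile on 7 of 9 arrays and on all 3 of wild type (3.34, 3.36 and 3.48), so the size of its difference is uncertain. The others were not called, with differences of 0.28 for AP3 (limma adjusted p = 0.140), 0.05 for PI, 0.06 for AP1 and -0.03 for LFY. AP3 was below the 10th percentile on 3 of 9 arrays. The mean level of the flower list was 4.32 to 4.57 in the arrays labelled 35S::AVP1 against 3.93 to 3.99 in wild type and 3.84 to 3.95 in the BRI1 line. That mean includes SEP3, whose change was by far the largest of the 6 with the 35S::AVP1 label, so it does not describe the list as a whole. AP1 stayed between 3.78 and 4.02 and LFY between 3.71 and 3.99 on all arrays. Of 6 root markers only PYK10 was called (0.86, and 0.68 with limma adjusted p = 0.0902 in the BRI1 line). With the 35S::AVP1 label the others changed by -0.08 (SHR), -0.0002 (SCR), 0.09 (PLT1), 0.10 (RHD6) and 0.17 (COBL9). Their changes in the BRI1 line were -0.18, 0.004, 0.09, 0.08 and -0.002 in the same order. The root list mean includes PYK10, whose change was the largest of the 6 in both lines. That mean was 6.46 to 6.51 with the 35S::AVP1 label, 6.27 to 6.32 in wild type and 6.38 to 6.45 in the BRI1 line. PLT1, RHD6 and COBL9 lay between 4.05 and 4.72 everywhere. Of 5 vascular markers XCP1, a xylem protease gene, was called lower (-0.53), and the others were not called, with differences of 0.24 for ATHB8 (limma adjusted p = 0.0858), 0.20 for IRX3, -0.11 for SUC2 and -0.19 for APL. The vascular list had a mean of 7.40 to 7.49 in the arrays labelled 35S::AVP1 against 7.44 to 7.64 in wild type and 7.45 to 7.55 in the BRI1 line. Of 4 shoot meristem markers 0 were called by limma, with 0 at an unadjusted p under 0.05, against 11.1% and 24.2% of all loci. Their mean was 4.73 to 4.89 in the arrays labelled 35S::AVP1, 4.63 to 4.85 in wild type and 4.67 to 4.98 in the BRI1 line.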

How the data were processed

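The authors deposited log2 values made with RMA, per the submitters' processing notes, a method that corrects background, normalizes between arrays and summarises probes. The sources used here do not say how probes were mapped to loci or which arrays were normalized as a set. The table holds 20777 loci on 9 arrays, with no detection calls, and precision is limited by there being 3 biological repeats per genotype. In R 4.3.3, limma 3.58.1 fitted a mean for each genotype (lmFit, eBayes; 6 residual and 3.94 prior degrees of freedom), and p-values were adjusted by Benjamini-Hochberg over all loci. The fit was also run on simulated data with errors drawn independently for each array, and no result here rests on that run. Symbols were matched in a TAIR10.1 gene table for 44 of 44 listed members and 91 of 93 other auxin genes. The members and lists were chosen with earlier results of these data known. Each called member, the 5 of lowest p in each comparison, up to 6 other auxin genes called per comparison and the 5 of lowest p in the BRI1 line were to be named, with the members of highest and lowest signal per family. Others are marked as named after their values were seen, or given as account of every member. Replicate numbers were not treated as pairs in the main fit. Among the 9 same-numbered pairs, the correlation of deviations from group means ran from 0.02 to 0.48 and exceeded 0.1 in 5. Among other-numbered pairs it ran from -0.50 to 0.49. Between wild type and the arrays labelled 35S::AVP1, same-numbered pairs gave 0.27, 0.07 and 0.28, and other-numbered pairs -0.26 to 0.01. Whether same-numbered arrays were handled together was not tested. Alternatives were quantile normalization, median centring, removal of loci under the 25th percentile of mean level, only the arrays compared, the replicate number as a block, a variance trend and leaving out each array. The counts cover all 43 measured members, of which 1 is not reported here by name or in the figures. Promoter motifs and protein degrons were not analysed here.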

Additional observations from a re-analysis of the deposited data

How the results depend on the processing

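Without detection calls, it is not known whether the dim genes IAA31, PIN8 and GH3.1 stood above background. The members called against wild type in the arrays labelled 35S::AVP1 numbered 6, and 4 to 7 when 1 array was left out. Between the lines they numbered 4, and 4 to 6. In the BRI1 line the number was 0 in every alternative run. Other auxin genes called numbered 9 and 7 to 11, 11 and 6 to 10, and 0 in all alternatives, in the same order. All loci called numbered 2300 and 1568 to 2161 in the arrays labelled 35S::AVP1, 2144 and 1298 to 2419 between the lines, and 17 and 3 to 10 in the BRI1 line, where the fit of only the 2 groups compared gave 7, with fewer samples. The members' median change ran from 0.03 to 0.08, -0.05 to 0.00 and 0.02 to 0.08 for the 3 comparisons in that order when 1 array was left out, and the median between the lines, -0.03, became 0.01 under quantile normalization and 0.03 under median centring. With the replicate block, the members called became 7 for the 35S::AVP1 label, 4 between the lines and 0 in the BRI1 line. The block called PIN3 (adjusted p = 0.0442), as did leaving out wild type replicate 1 (0.58, adjusted p = 0.0463). It ended the call of PILS3 (adjusted p = 0.0548), and PILS3 also failed after quantile normalization (adjusted p = 0.0587). LAX1 passed against wild type without wild type replicate 3 (0.28, adjusted p = 0.0458). Of 750 values recomputed for 50 pairs of a gene and a comparison, 710 kept their side of the threshold, 28 lost it and 12 gained it, and none changed sign. The cause of these changes was not tested.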
